A study of Homo sapiens with 12 samples.

Results

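Caco-2 monolayers given the bacterium Bacillus subtilis CW14 alone were compared with monolayers given no treatment, 3 RNA libraries in each group, which are 6 of the 12 libraries of the series. The libraries were chosen by their labelled treatment, and every gene of the deposited table was considered. Caco-2 is a human colon adenocarcinoma line that forms a polarised monolayer like that of small-intestinal enterocytes. The cells of all groups had been grown for 21 days on 12-well transwell inserts in medium with penicillin and streptomycin, then held in a HEPES-buffered salt solution. The CW14 group received the bacteria in the apical chamber in 0.5 mL per well, and the control group received neither bacteria nor toxin. The labels print the dose as 1010 CFU/mL, where a superscript may have been lost. They do not give the time of exposure. The other groups, OTA plus CW14 and OTA, received the mould toxin ochratoxin A (OTA) at 15 µmol/L with and without the bacteria. They are used here for the question of what CW14 did when the toxin was present. Some alternative fits and the correlations over all 12 libraries also include them. In the title of the series CW14 is called a probiotic.

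Intestinal epithelial cells meet bacteria through pattern-recognition receptors such as the Toll-like receptors, which read bacterial lipoproteins, flagellin and nucleic acids, and through cytosolic NOD proteins, which read peptidoglycan. These receptors lead to the kinase complex IKK, which removes the inhibitor IκB from the transcription factor NF-kB. NF-kB then switches on chemokines that call in neutrophils and lymphocytes, cytokines such as TNF, and its own inhibitors, which end the response.

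Of 12788 genes tested, 67 were called at an adjusted p under 0.05 (limma, Benjamini-Hochberg), which is 0.524% of them. The 34 called higher with CW14 (0.266% of genes tested) included chemokines, TNF family ligands, colony-stimulating factors and inhibitors of NF-kB. Of the 33 called lower (0.258%), those with the largest log2 differences were the stress-inducible chaperone HSPA6, HIST1H2AH and TBC1D3F, both listed at 0 with CW14, then HSPA7, FOS, RGS2 and ID1. These shares are the background for each count of called list members. No tight junction or adherens junction gene was called, nor any brush border, nutrient transporter, mucin or lipid absorption gene. The 3 CW14 values of every called gene lay on 1 side of the 3 control values, while over all genes tested this was so for 20.7%. The median log2 difference over all genes was -0.02. All log2 differences here are CW14 minus control of the mean of log2(FPKM + 1), a scale that understates the change of genes near 0, and FPKM are fragment counts set relative to the length of the transcript and to how many fragments of the library were mapped. At an unadjusted p under 0.05, 1726 genes passed. The count of calls rested on each library: it was 37 without CW14 replicate 1 and 11 without CW14 replicate 3. It was 17 without control replicate 1, 8 without control replicate 2 and 7 without control replicate 3. Without CW14 replicate 2 it was 100, of which 66 were higher. Of the 67 calls, 26, 50 and 10 remained without CW14 replicates 1, 2 and 3, and 15, 6 and 6 without control replicates 1, 2 and 3. Every call that could be tested kept its sign in each of these fits. That was fixed in advance, since the groups of every called gene did not overlap.

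**Figure D1:**
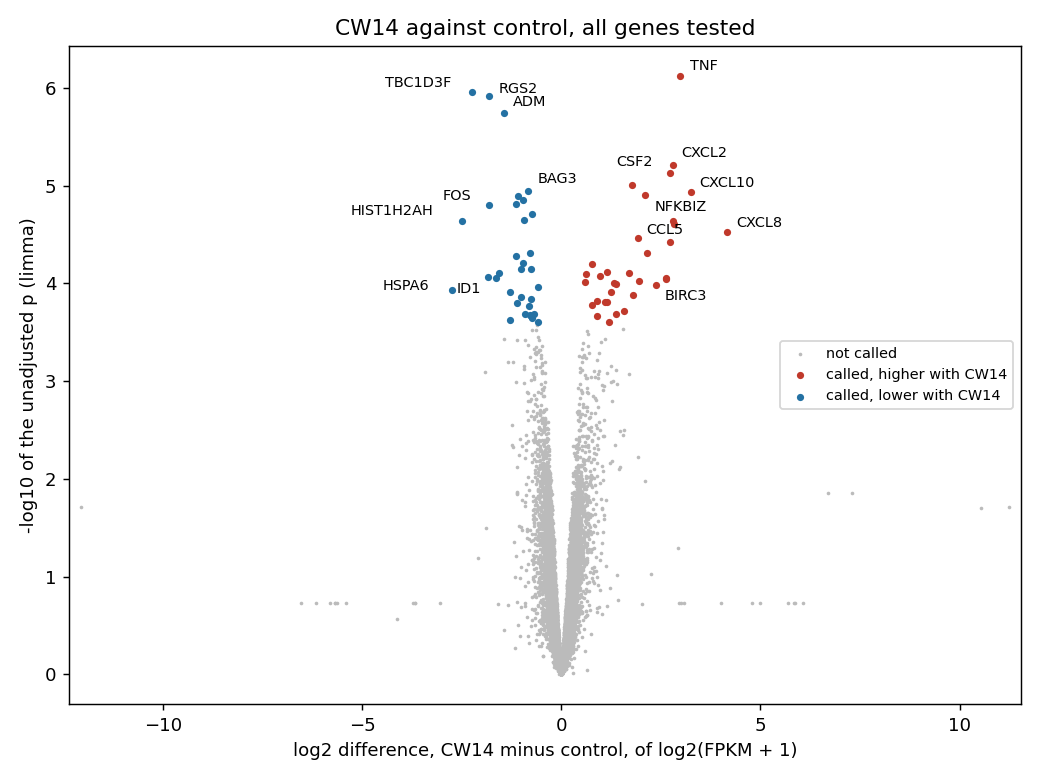
Each point is 1 of the 12788 genes tested, with the log2 difference of CW14 minus control on the x axis and the -log10 of the unadjusted p (limma) on the y axis. The 34 genes called higher are in red and the 33 called lower in blue. The grey points far to either side are mostly small RNA genes, and none of them was called.

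The plot of all genes shows the called genes in the upper corners and TNF, RGS2, TBC1D3F and ADM at the top. The libraries had relative depths, read from the smallest FPKM steps, of 0.774 to 0.895 in CW14 and 0.914 to 1.58 in control, taking control replicate 1 as 1. Every library correlated slightly more with its own group (mean r 0.942 to 0.953) than with the other (0.936 to 0.944). The second principal component, with 23.5% of the variance, did not follow the groups: CW14 replicate 1 and control replicate 1 stood at 25.4 and 26.6, and the other libraries between -26.9 and 4.1. With both of these left out, a choice made after seeing the data, 6 genes were called. Of 14 immune cell markers, 6 were at 0 in all 6 libraries, among them PTPRC (CD45) and MPO, and the summed level of the list was 65.2 to 85.9 FPKM in CW14 and 75.6 to 96 FPKM in control libraries, nearly all of it CD68. Of 15 markers of colonic epithelium and enterocytes, 14 were over 1 FPKM. The exception was SI (sucrase-isomaltase), with means of 0.06 FPKM in CW14 and 0.07 FPKM in control libraries. The summed level of the list was 5380 to 6190 FPKM in CW14 libraries and 6320 to 6730 FPKM in control libraries, groups that did not overlap. The keratins weigh heavily in this sum: KRT8 averaged 2129 FPKM with CW14 and 2564 FPKM in control libraries, and KRT18 936 and 1290 FPKM. None of the 14 tested was called. Their median log2 difference was -0.06, with 5 positive and 9 negative. A change in cell number and a change in RNA per cell cannot be told apart in these data.

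The starts of several genes that rose are printed here because their promoters hold a short pattern of the kind that NF-kB is known to bind. RefSeq promoters (GRCh38.p14) were found for 53 of the 67 called genes. The motif was searched on both strands from 250 bases before to 50 after the start as GGANNTTCC. It was present in 4.59% of 27305 RefSeq promoters and in 4.49% of those of the genes tested. It was present in 10 of 25 promoters of genes called higher (40%) and in 0 of 28 of genes called lower. Other patterns were searched in the same windows. The AP-1 pattern TGANTCA was present in 2 of 25 promoters of genes called higher (8%), in 3 of 28 of genes called lower (10.7%) and in 4.56% of those of genes tested. The TATA box TATAAA was present in 5 of 25 (20%) and 7 of 28 (25%), against 6% of genes tested, and the cyclic AMP element TGACGTCA in none of either set, against 3.3%. Below are the 250 bases before the start of CXCL8 (chr4:73740319-73740568, + strand), CXCL2 (chr4:74099196-74099445, - strand), CXCL10 (chr4:76023498-76023747, - strand), CSF2 (chr5:132073539-132073788, + strand), NFKBIA (chr14:35404750-35404999, - strand) and TNFAIP3 (chr6:137867009-137867258, + strand), each 5′ to 3′ on the strand of its gene, with matches to GGANNTTCC or its reverse complement in capitals. A match describes the letters and is not a measured binding site.
CXCL8: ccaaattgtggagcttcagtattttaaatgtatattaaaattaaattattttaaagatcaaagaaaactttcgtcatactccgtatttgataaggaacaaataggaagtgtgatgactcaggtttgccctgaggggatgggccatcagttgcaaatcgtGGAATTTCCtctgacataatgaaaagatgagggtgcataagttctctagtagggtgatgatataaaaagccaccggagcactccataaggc
CXCL2: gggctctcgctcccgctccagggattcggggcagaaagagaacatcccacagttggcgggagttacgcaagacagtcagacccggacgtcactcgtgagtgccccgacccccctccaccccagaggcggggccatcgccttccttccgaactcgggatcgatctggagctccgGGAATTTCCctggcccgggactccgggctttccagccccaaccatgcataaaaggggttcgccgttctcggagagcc
CXCL10: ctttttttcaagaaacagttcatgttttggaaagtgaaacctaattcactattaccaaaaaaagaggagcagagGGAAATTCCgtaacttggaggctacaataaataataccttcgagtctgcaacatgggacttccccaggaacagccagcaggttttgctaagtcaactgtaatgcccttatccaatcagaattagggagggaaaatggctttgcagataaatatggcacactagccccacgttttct
CSF2: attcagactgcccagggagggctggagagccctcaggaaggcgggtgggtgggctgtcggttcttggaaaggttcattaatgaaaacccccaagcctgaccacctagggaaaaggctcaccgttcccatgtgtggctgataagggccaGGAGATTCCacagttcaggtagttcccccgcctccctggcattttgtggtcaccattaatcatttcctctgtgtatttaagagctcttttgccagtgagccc
NFKBIA: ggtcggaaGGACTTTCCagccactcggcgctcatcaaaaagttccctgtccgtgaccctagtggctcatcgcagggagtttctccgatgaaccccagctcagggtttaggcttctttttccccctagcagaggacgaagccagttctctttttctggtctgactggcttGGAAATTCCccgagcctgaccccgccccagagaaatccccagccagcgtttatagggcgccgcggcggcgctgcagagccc
TNFAIP3: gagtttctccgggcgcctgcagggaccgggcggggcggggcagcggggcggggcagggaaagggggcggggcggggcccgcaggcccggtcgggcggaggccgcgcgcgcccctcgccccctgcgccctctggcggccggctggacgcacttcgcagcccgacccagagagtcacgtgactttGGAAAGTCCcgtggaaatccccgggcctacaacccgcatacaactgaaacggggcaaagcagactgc
The match began 91 bases before the start in CXCL8 and 77 bases before it in CXCL2, and its letters were GGAATTTCC in both. In CXCL10 it was GGAAATTCC, beginning 176 bases before the start, and in CSF2 GGAGATTCC, at 102 bases. NFKBIA had a match at 242 bases and another at 81. CXCL1, CXCL3, NFKBIZ and LTB also had a match in this window, and TNF, BIRC3, PLAU and IRF1 did not. That these letters are missing there says nothing of the factor.

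All 4 neutrophil-attracting chemokines that passed the filter rose. CXCL8 (interleukin 8; hg19 chromosome 4, 74606221 to 74609433) had 127, 28.7 and 124 FPKM in the CW14 libraries, against 3.51, 4.36 and 2.43 FPKM in control libraries. CW14 replicates 1 and 3 lay far above replicate 2, and all 3 lay above every control. The log2 difference was 4.16 ± 0.51 (SE; adjusted p = 0.019, limma), and the mean FPKM was 27.2-fold higher. Its neighbours on chromosome 4 also rose. CXCL2 had 446, 191 and 387 FPKM with CW14, against 50.6, 43 and 42.9 FPKM in control libraries. Its groups were well apart, with a log2 difference of 2.8 ± 0.28 (SE; adjusted p = 0.0145, limma). CXCL1 had 410, 120 and 250 FPKM with CW14, against 35.7, 43 and 31.6 FPKM in control libraries. CXCL3 had 125, 41.5 and 80.2 FPKM with CW14, against 8.92, 10.9 and 9.59 FPKM in control libraries. Mean levels were 7.07-fold higher for CXCL1 and 8.39-fold higher for CXCL3. These 3 genes are closely related in sequence, so reads could be split among them. This count of 4 stands against 0.266% of genes tested, with a median log2 difference of 2.8, and it ran from 0 to 4 over the other settings. The remaining 3 of the 7 listed, CXCL5, CXCL6 and PPBP, were under the filter of a mean of 1 FPKM. CXCL8 remained called in 11 of 19 other settings, with adjusted p of 0.000125 to 0.148, and CXCL2 in 14.

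Of the other 9 chemokines that passed the filter, 2 rose (background 0.266%) and 7 did not pass the test, with a median of 1.06. Both that rose, CXCL10 and CCL5, averaged under 1 FPKM in control libraries and so passed the filter only through their CW14 values, which makes the count a description. CXCL10, which draws T cells through CXCR3 and is also an interferon-induced gene, had 24.6, 9.27 and 18.2 FPKM with CW14, against 0.583, 1.6 and 0.427 FPKM in control libraries. The lowest CW14 value was several times the highest control value, and the log2 difference was 3.25 ± 0.35 (SE; adjusted p = 0.0145, limma). CCL5, a chemokine for T cells and eosinophils, had 2.58, 2.23 and 4.27 FPKM with CW14, and control libraries were listed at 0, 0.122 and 0 FPKM (adjusted p = 0.0206, limma). CCL20, which draws CCR6-positive dendritic cells and lymphocytes, was not called. Its values were 641, 228 and 370 FPKM with CW14, against 194, 120 and 87.9 FPKM in control libraries, with a log2 difference of 1.57 (95% interval 0.69 to 2.44; adjusted p = 0.151, limma). The groups did not overlap, and replicate 1 was the highest of both. CXCL11, another CXCR3 ligand, had 2.35, 0.542 and 2.96 FPKM with CW14, against 0.14, 0.266 and 0 FPKM in control libraries (adjusted p = 0.201, limma).

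TNF and lymphotoxin beta, neighbouring genes on chromosome 6 that encode ligands of the TNF superfamily, both rose. TNF, at hg19 positions 31543342 to 31546112, had 15, 9.76 and 19.1 FPKM with CW14, against 0.929, 0.755 and 1.02 FPKM in control libraries. Its control libraries were close to each other, and the log2 difference was 2.99 ± 0.23 (SE; adjusted p = 0.00516, limma), with 16.2-fold higher mean FPKM. TNF remained called in 18 of 19 other settings and was not called with both libraries numbered 1 left out (adjusted p = 0.0712). LTB had 22.2, 11.6 and 21.4 FPKM with CW14, against 0.62, 2.37 and 2.4 FPKM in control libraries (log2 difference 2.82 ± 0.34 SE; adjusted p = 0.0168, limma). The other 3 ligands of the family that passed the filter were not called, with log2 differences of -0.28 for TNFSF10 (TRAIL) to 0.15 for TNFSF15 (TL1A).

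The 3 classical colony-stimulating factors, which drive the growth and survival of granulocytes and macrophages, rose. All of them, like TNF, averaged under 1 FPKM in control libraries and passed the filter only through their CW14 values, while genes low in both groups were left out, so their count is a description. CSF2 (GM-CSF) had 8.86, 3.55 and 5.65 FPKM with CW14 and was listed at 0 in all control libraries, so that no fold is given (adjusted p = 0.0145, limma). CSF3 (G-CSF) had 8.96, 3.38 and 11.5 FPKM with CW14, against 0.154, 0.682 and 0.169 FPKM in control libraries (adjusted p = 0.0306, limma). CSF1 (M-CSF) had 5.64, 3.27 and 6.46 FPKM with CW14, against 0.623, 1.05 and 0.812 FPKM in control libraries (adjusted p = 0.0306, limma). CW14 replicate 2 was the lowest of the CW14 libraries for each of them. Over the list of interleukins and colony-stimulating factors, these were the only 3 called of 14 that passed the filter (background 0.266% called higher), with a median log2 difference of 0.41. IL1B was not called. It had 10.3, 3.7 and 6.72 FPKM with CW14, against 2.11, 2.96 and 0.995 FPKM in control libraries (adjusted p = 0.176, limma). LIF, a cytokine of the interleukin 6 family, had 44.2, 29.8 and 62.7 FPKM with CW14, against 17.5, 18.8 and 25.2 FPKM in control libraries (adjusted p = 0.14, limma). IL23A, a subunit of interleukin 23, had 6.07, 4.86 and 4.14 FPKM with CW14, against 2.36, 2.69 and 2.34 FPKM in control libraries (adjusted p = 0.106, limma). IL18 was not called, at a log2 difference of -0.18. IL6 itself was under the filter, at 0.898, 0 and 0.705 FPKM with CW14 and listed at 0 in all control libraries. IL17C, an epithelial interleukin, was also under it, at 2.89, 0 and 2.2 FPKM with CW14, against 0.235, 0 and 0.259 FPKM in control libraries.

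**Figure D2:**
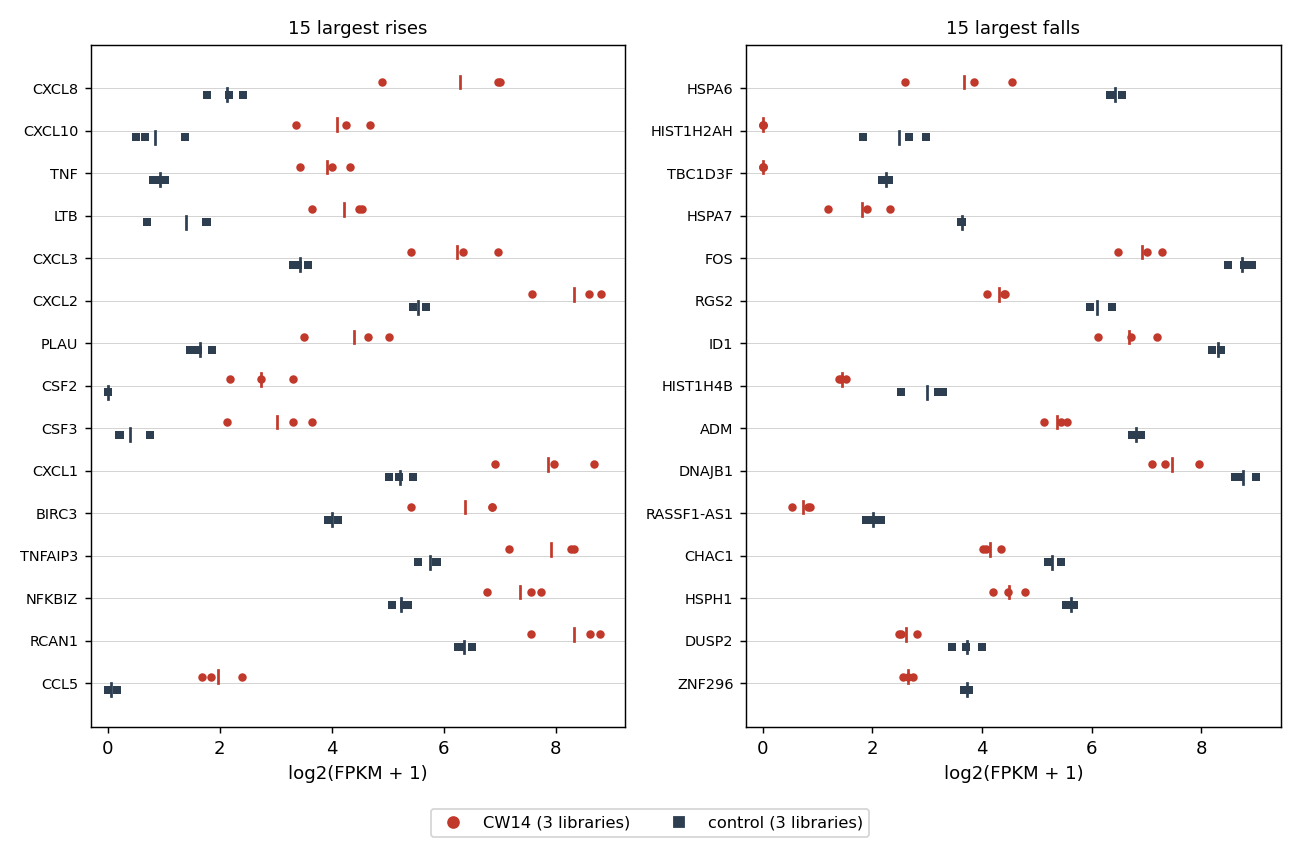
Values of log2(FPKM + 1) on the x axis for the 15 largest rises (left panel) and the 15 largest falls (right panel) among called genes, with 1 gene per row. Red circles are the 3 CW14 libraries, dark squares the 3 control libraries, and short lines their means. The groups do not overlap for any of the 30 genes, and the CW14 libraries are more spread than the control libraries for most of the rises.

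In the plot of the largest changes, CW14 replicate 2 was the lowest CW14 library for the chemokines, TNF, LTB and the colony-stimulating factors. Over the 34 genes called higher, CW14 replicate 2 was the lowest of the CW14 libraries for 24. It had the lowest relative depth (0.774). Over the 33 genes called lower, CW14 replicate 3 was the lowest for 24, that is, the farthest from control. The part of depth in this order was not tested.

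Of 34 genes in the lists of NF-kB subunits, inhibitors, feedback and survival targets, 4 rose, against 0.266% of genes tested. TNFAIP3 (A20), a ubiquitin-editing enzyme that shuts off signalling to IKK, had 320, 143 and 310 FPKM with CW14, against 58.2, 57.1 and 45.4 FPKM in control libraries (log2 difference 2.16 ± 0.28 SE; adjusted p = 0.0261, limma). NFKBIA (IκBα), which holds NF-kB in the cytosol, had 624, 387 and 533 FPKM with CW14, against 228, 239 and 179 FPKM in control libraries. Its log2 difference was 1.24 ± 0.18 (SE; adjusted p = 0.0331, limma), from a high control level. NFKBIZ (IκBζ), a nuclear IκB protein that co-activates a subset of targets, had 188, 108 and 213 FPKM with CW14, against 40.3, 38.1 and 32.9 FPKM in control libraries (adjusted p = 0.0145, limma). BIRC3 (cIAP2), a ubiquitin ligase that restrains cell death below TNF receptors, had 115, 41.7 and 115 FPKM with CW14, against 14.2, 14.5 and 16.3 FPKM in control libraries (adjusted p = 0.031, limma). For all 4 genes replicate 2 was the lowest CW14 library, and it still lay above every control library.

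Beyond these, most of the pathway did not pass the test. In the list of 17 NF-kB subunits and inhibitors, 2 were called higher and 15 were not called, with a median of 0.56. By position, 9 of 17 lay above every control, against 9.77% of genes tested. Among these 9, NFKBID averaged 0.6 FPKM in control libraries and passed the filter only through its CW14 values, so this count is a description. The subunits REL and NFKB1 had log2 differences of 0.91 (95% interval 0.29 to 1.53) and 0.81 (0.3 to 1.32), and neither was called (adjusted p = 0.217 and 0.196, limma). RELA, the transactivating subunit, had 48.8, 54.8 and 48.1 FPKM with CW14, against 40, 50.1 and 49.2 FPKM in control libraries, which overlap. The kinase genes CHUK and IKBKB had log2 differences of -0.17 and -0.1. Without CW14 replicate 2, REL was called at 1.25 (adjusted p = 0.0199, limma) and BCL3, a nuclear IκB protein, at 0.97 (adjusted p = 0.0281). That replicate was the lowest CW14 library for both genes, so leaving it out favours a rise. With it, BCL3 was not called either (log2 difference 0.71; adjusted p = 0.214, limma). In the list of 17 feedback and survival targets, 2 were called higher, with a median of 0.46. SOD2, the mitochondrial superoxide dismutase, had 95.9, 39.2 and 111 FPKM with CW14, against 24.3, 21.5 and 21.7 FPKM in control libraries, and was not called (adjusted p = 0.0815, limma). ZC3H12A (regnase-1), which degrades cytokine mRNA, had 49.5, 32.7 and 48.7 FPKM with CW14, against 22.9, 24.8 and 19.9 FPKM in control libraries (adjusted p = 0.0738, limma).

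None of the 19 bacterial sensors and adaptors that passed the filter was called, with a median of 0.16. TLR2, the lipoprotein receptor, had 9.62, 10.7 and 10.3 FPKM with CW14, against 9.87, 7.76 and 8.1 FPKM in control libraries (log2 difference 0.23, 95% interval -0.06 to 0.53). NOD1 and MYD88, the adaptor shared by most Toll-like receptors, had log2 differences of -0.08 (-0.43 to 0.28) and 0.04 (-0.23 to 0.31). TICAM1 (TRIF), the adaptor of TLR3, had 50.4, 31.1 and 47.3 FPKM with CW14, against 20.4, 18.6 and 22.2 FPKM in control libraries, which do not overlap (adjusted p = 0.0635, limma). TLR5, the flagellin receptor, was under the filter at 0.532, 0.798 and 0.334 FPKM with CW14, against 0.571, 0.66 and 0.73 FPKM in control libraries. TLR4, TLR9 and NOD2 were under it as well, and LY96 (MD-2), the partner of TLR4, was listed at 0 throughout. Of 12 antimicrobial, acute phase and complement genes that passed the filter, none was called. CFB, complement factor B, had 5.61, 4.83 and 9.14 FPKM with CW14, against 2.31, 2.77 and 2.62 FPKM in control libraries (adjusted p = 0.0987, limma). DEFB4A, S100A8 and CAMP, classical inducible antimicrobial genes, were listed at 0 in all 6 libraries.

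Of 29 interferon-response genes that passed the filter, IRF1 was called. It encodes a transcription factor that both interferon gamma and NF-kB induce. IRF1 had 62.8, 30.2 and 59.4 FPKM with CW14, against 14.9, 16.4 and 15.6 FPKM in control libraries (log2 difference 1.57 ± 0.25 SE; adjusted p = 0.0427, limma). The median of the list was -0.01. ISG15 and MX1, classical interferon-induced genes, had log2 differences of 0.2 and -0.08 with adjusted p of 0.622 and 0.94 (limma). By position, 2 of 29 lay above and 1 below every control, against 9.77% and 10.9% of genes tested.

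Genes outside the cytokine and NF-kB lists rose too. PLAU (urokinase), a secreted protease that activates plasminogen, had 24.2, 10.3 and 31.5 FPKM with CW14, against 1.78, 2.65 and 2.05 FPKM in control libraries (log2 difference 2.74 ± 0.35 SE; adjusted p = 0.0219, limma). ICAM1, the adhesion molecule that leukocyte integrins bind, narrowly missed the threshold. It had 91.3, 42.6 and 87.6 FPKM with CW14, against 25.1, 23.1 and 21.5 FPKM in control libraries (log2 difference 1.55, 95% interval 0.96 to 2.15; adjusted p = 0.0535, limma), and in the fit of all 12 libraries it was called (adjusted p = 0.0131). SDC4 (syndecan 4), a heparan sulphate proteoglycan of the cell surface, had the highest level of the called genes with CW14, at 1250, 761 and 1110 FPKM with CW14, against 477, 462 and 472 FPKM in control libraries (adjusted p = 0.0374, limma). RCAN1, an inhibitor of the phosphatase calcineurin, had 391, 188 and 440 FPKM with CW14, against 90, 75.7 and 78.4 FPKM in control libraries (adjusted p = 0.0306, limma). CYP1A1, the monooxygenase that the aryl hydrocarbon receptor induces, had 43.8, 31.3 and 46.7 FPKM with CW14, against 12, 18.5 and 16.2 FPKM in control libraries (log2 difference 1.33 ± 0.19 SE; adjusted p = 0.0307, limma). It was the only called gene of 36 for drug efflux and conjugation. CYP1B1 and TIPARP, known targets of the same receptor, were not called, although their groups did not overlap (log2 differences 1.37 and 0.56, adjusted p = 0.0815 and 0.12, limma). RND1 had 38.8, 33.4 and 62.4 FPKM with CW14, against 13.6, 17.8 and 17.3 FPKM in control libraries (adjusted p = 0.0437, limma). C6orf222, S100A3, UCN, WBSCR27 and VMP1 also rose, by 0.64 to 1.38 on the log2 scale.

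Noncoding and pseudogene entries were among the calls. LOC284454, which RefSeq lists by the same gene ID as MIR23AHG, the host transcript of a microRNA cluster on chromosome 19, had 72.7, 48.3 and 75.3 FPKM with CW14, against 15.7, 17.5 and 21.7 FPKM in control libraries (log2 difference 1.77 ± 0.19 SE; adjusted p = 0.0145, limma). LINC00641, HCG4B, BMS1P18 and RPS14P3 also rose, by 0.76 to 1.79 on the log2 scale. HNRNPU-AS1 and THUMPD3-AS1 were called higher and RASSF1-AS1 lower. The labels do not say that the kit marks strand, so reads of these antisense entries cannot be told apart from those of overlapping genes.

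Of 31 cytosolic heat shock proteins and co-chaperones that passed the filter, 5 fell. HSPA6, an inducible member of the HSP70 family that is nearly silent without stress, had 22.3, 13.5 and 5.08 FPKM with CW14, against 81.6, 92.4 and 80 FPKM in control libraries. Its CW14 values were spread widely below a narrow control range, and its log2 difference was -2.75 ± 0.4 (SE; adjusted p = 0.0331, limma). HSPA7 is a near-identical neighbouring copy and is not a member of this list. It had 3.99, 2.74 and 1.29 FPKM with CW14, against 11.2, 11.5 and 11.5 FPKM in control libraries (adjusted p = 0.0306, limma). Its CW14 libraries were in the same order, and reads may be split between the 2 copies. DNAJB1 (HSP40), the co-chaperone that brings clients to HSP70, had 248, 161 and 136 FPKM with CW14, against 508, 411 and 388 FPKM in control libraries (adjusted p = 0.0462, limma). HSPH1 (HSP105), a nucleotide exchange factor of HSP70, had 26.6, 21.3 and 17.4 FPKM with CW14, against 48.5, 45.1 and 50.4 FPKM in control libraries (adjusted p = 0.0265, limma). BAG3, an HSP70 co-chaperone of selective autophagy, had 44, 43.5 and 39.6 FPKM with CW14, against 79.3, 74.1 and 73.9 FPKM in control libraries (adjusted p = 0.0145, limma). HSPB1 (HSP27), a small heat shock protein, had 109, 103 and 110 FPKM with CW14, against 156, 195 and 218 FPKM in control libraries (adjusted p = 0.0393, limma).

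Of this list, 5 of 31 were called lower, none higher and 26 were not called, against 0.258% of genes tested that were called lower. The median log2 difference was -0.44, and 21 of 31 lay below every control, against 10.9% of genes tested. The count called lower ran from 0 to 13 over the other settings. Members that just missed the threshold included HSPA1A, whose reads may be split with its near-identical copy HSPA1B, with 731, 395 and 452 FPKM in CW14 libraries and 1380, 1180 and 982 FPKM in control libraries (log2 difference -1.21, 95% interval -1.73 to -0.68; adjusted p = 0.0747, limma). HSPA8, the constitutive HSC70, had 1220, 898 and 903 FPKM with CW14, against 1980, 1690 and 1660 FPKM in control libraries (adjusted p = 0.0667, limma). HSP90AA1 had a log2 difference of -0.66 (-0.95 to -0.38; adjusted p = 0.0746, limma). HSF1, the transcription factor of the heat shock response, had 23.7, 27.7 and 27.6 FPKM with CW14, against 27.1, 28.6 and 25.9 FPKM in control libraries, and was not called.

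The promoter of HSPA6 is shown because it was the only one of the 53 promoters searched with a heat shock element, sought as 3 inverted GAA units, each 2 bases from the next, on both strands. This element was present in 0.487% of RefSeq promoters and in 0.259% of those of genes tested. It was present in 1 of 28 of genes called lower and in 0 of 25 of genes called higher. Only this exact pattern was searched, in the same window as above. That it is missing from the other promoters, such as those of DNAJB1, HSPH1, BAG3 and HSPB1, says nothing of the factor. The match, in capitals, began 74 bases before the start (GRCh38.p14, chr1:161524290-161524539, + strand, 5′ to 3′).
HSPA6: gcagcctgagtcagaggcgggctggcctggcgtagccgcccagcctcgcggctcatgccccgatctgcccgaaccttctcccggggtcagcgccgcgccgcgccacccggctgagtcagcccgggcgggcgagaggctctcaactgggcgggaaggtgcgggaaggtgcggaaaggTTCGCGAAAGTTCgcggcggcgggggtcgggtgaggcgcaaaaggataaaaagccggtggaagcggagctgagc

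Of 23 genes of the unfolded protein response, which serves the endoplasmic reticulum, 1 fell, and of 23 genes of the ATF4 response to amino acid and other stress, 2 fell, against 0.258% of genes tested. HSPA5 (BiP), the main HSP70 of the endoplasmic reticulum, had 585, 522 and 500 FPKM with CW14, against 957, 854 and 947 FPKM in control libraries (log2 difference -0.78 ± 0.1 SE; adjusted p = 0.0261, limma). The median of its list was -0.23, and 13 of the 23 lay below every control, against 10.9% of genes tested. XBP1, a transcription factor of that response, had 317, 283 and 296 FPKM with CW14, against 407, 408 and 456 FPKM in control libraries (adjusted p = 0.0711, limma). In the ATF4 list, CHAC1 and CEBPB were called lower, and the median was -0.28. CHAC1, a glutathione-degrading enzyme, had 19.4, 15.8 and 15.2 FPKM with CW14, against 35.6, 35.6 and 42.6 FPKM in control libraries (adjusted p = 0.0145, limma). CEBPB, a transcription factor also induced in inflammation, had 149, 151 and 141 FPKM with CW14, against 230, 250 and 252 FPKM in control libraries (adjusted p = 0.0162, limma). ATF4 itself had a log2 difference of -0.28 (adjusted p = 0.365, limma).

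Among immediate early genes, 2 of 29 were called, both lower (background 0.258%), and the median was -0.1. FOS, a subunit of the transcription factor AP-1, had 155, 128 and 87.8 FPKM with CW14, against 486, 437 and 358 FPKM in control libraries. Its highest CW14 value was below its lowest control value by a wide margin, and its log2 difference was -1.8 ± 0.2 (SE; adjusted p = 0.0145, limma). MYC had 94.2, 66.3 and 96.6 FPKM with CW14, against 163, 151 and 166 FPKM in control libraries (adjusted p = 0.0437, limma). JUN and JUNB, partners of FOS, were not called and overlapped, with log2 differences of -0.16 and -0.02. FOSL1, another AP-1 subunit, lay on the other side of control, with 101, 95.6 and 104 FPKM with CW14, against 75.1, 68.1 and 59.6 FPKM in control libraries (adjusted p = 0.0711, limma). EGR1 was not called (log2 difference -0.4; adjusted p = 0.139, limma). Of 16 MAPK feedback genes, DUSP5, a phosphatase of nuclear ERK, was called higher, at 350, 326 and 341 FPKM with CW14, against 238, 215 and 221 FPKM in control libraries (adjusted p = 0.0307, limma). DUSP2, another nuclear MAPK phosphatase, was called lower, at 6.05, 4.76 and 4.63 FPKM with CW14, against 10, 15 and 12 FPKM in control libraries (adjusted p = 0.0374, limma).

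RGS2 and ADM were the only genes called in all 19 other settings. RGS2, a regulator that speeds the shut-off of G protein signals, had 20.5, 20.1 and 16 FPKM with CW14, against 81.9, 62 and 61.3 FPKM in control libraries (log2 difference -1.8 ± 0.15 SE; adjusted p = 0.00516, limma; 0.00111 to 0.0412 over the settings). ADM, the precursor of the peptide adrenomedullin, had 46.1, 42.4 and 34 FPKM with CW14, against 106, 110 and 118 FPKM in control libraries (log2 difference -1.43 ± 0.12 SE; adjusted p = 0.00576, limma). ADM is also a hypoxia target, and it was the only one called of 28, whose median was 0.22. VEGFA, another hypoxia target, had 161, 133 and 138 FPKM with CW14, against 161, 157 and 137 FPKM in control libraries. ID1, an inhibitor of bHLH transcription factors and a target of BMP signals, had 104, 145 and 68.3 FPKM with CW14, against 327, 327 and 292 FPKM in control libraries (log2 difference -1.63 ± 0.23 SE; adjusted p = 0.0306, limma). SNAI1, a repressor of E-cadherin in mesenchymal transition, had 33.9, 41.6 and 33.7 FPKM with CW14, against 65.1, 61.5 and 54.9 FPKM in control libraries (adjusted p = 0.0445, limma). PLK2, CITED2, SERTAD1 and DEDD2 fell too, by 0.94 to 1.01 on the log2 scale.

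TBC1D3F and HIST1H2AH were listed at 0 in all CW14 libraries, so no fold is given. TBC1D3F had 3.91, 3.8 and 3.52 FPKM in control libraries, and HIST1H2AH had 5.34, 6.86 and 2.55 FPKM. Both belong to families of near-identical copies among which reads can be shifted, and a 0 can be a failed estimate. HIST1H4B, a replication-dependent histone, had 1.63, 1.86 and 1.7 FPKM with CW14, against 8.78, 4.76 and 8.19 FPKM in control libraries (adjusted p = 0.0306, limma). It was the only called gene of 32 clustered histones tested in that list, whose median was -0.43.

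**Figure D3:**
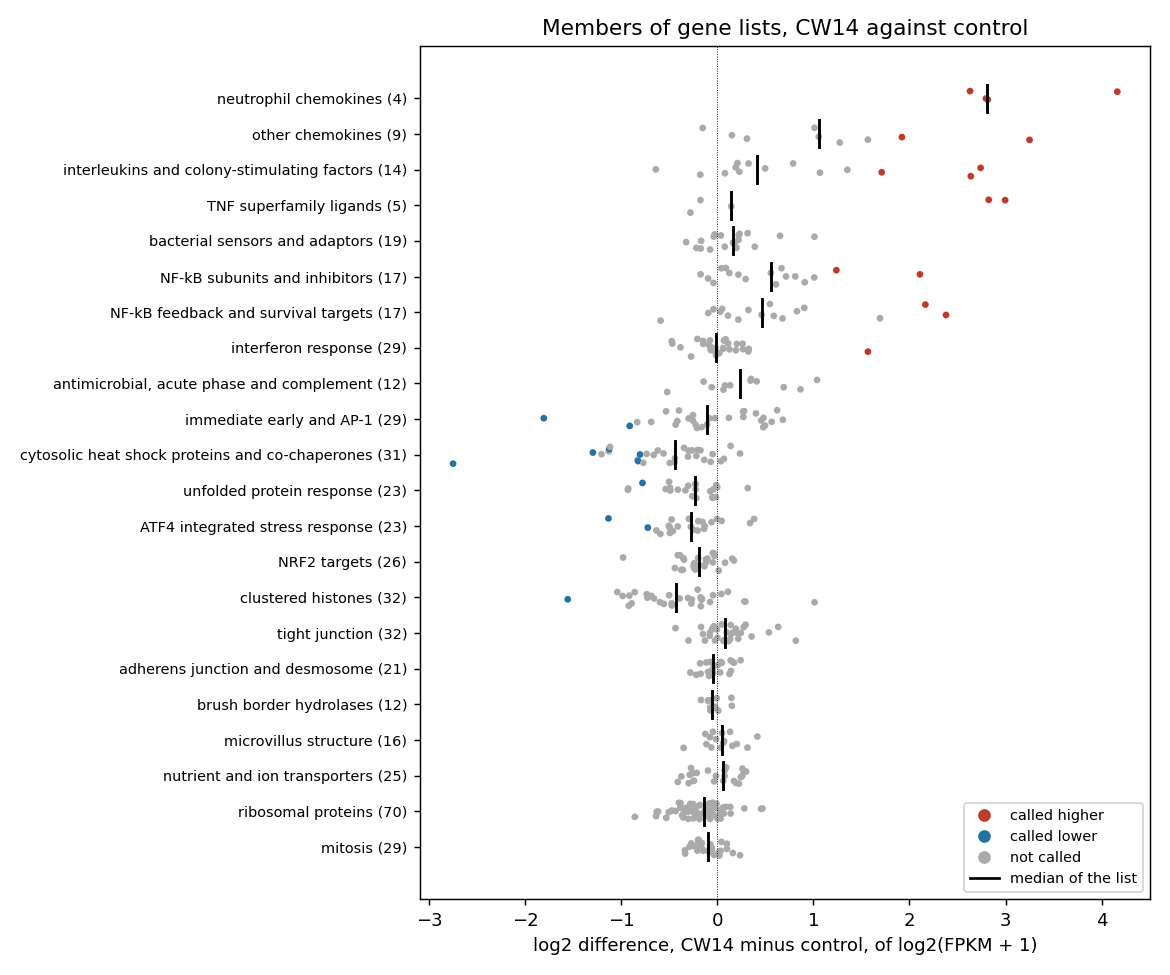
Each point is a gene that passed the filter, placed by its log2 difference (CW14 minus control) on the x axis within its gene list, with the number tested in brackets. Red points were called higher, blue points lower, grey points were not called, and black bars are list medians. The cytokine and NF-kB lists lie to the right, the heat shock list to the left with a median of -0.44, and the junction and brush border lists near 0.

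The plot of gene lists sets these groups beside the barrier, which the series title raises for OTA. Of 32 tight junction genes that passed the filter, 0 were called, and the median log2 difference was 0.09, against -0.02 for all genes. By position alone, 3 of them lay above and 4 below every control, against 9.77% and 10.9% of genes tested. The scaffold TJP1 (ZO-1) had 50.9, 40.1 and 57 FPKM with CW14, against 42.4, 42 and 48.4 FPKM in control libraries. Its groups overlapped, and the log2 difference was 0.14 (95% interval -0.17 to 0.46; adjusted p = 0.693, limma). OCLN (occludin), a transmembrane protein of the junction, had 74.3, 69.2 and 78.7 FPKM with CW14, against 84.3, 77.7 and 88.3 FPKM in control libraries (-0.38 to 0.04; adjusted p = 0.468, limma). CLDN4, a sealing claudin, was the most abundant, at 2090, 1740 and 2040 FPKM with CW14, against 1840, 1730 and 1750 FPKM in control libraries (-0.12 to 0.4; adjusted p = 0.634, limma). CLDN1, another sealing claudin, had 175, 148 and 190 FPKM with CW14, against 153, 127 and 136 FPKM in control libraries (0.02 to 0.56; adjusted p = 0.329, limma). CLDN2, which forms a cation pore, had 14.9, 9.68 and 13.3 FPKM with CW14, against 16.9, 11.2 and 11.3 FPKM in control libraries (-0.51 to 0.41; adjusted p = 0.933, limma). MYLK, the myosin light chain kinase that opens junctions, had 25.3, 24.3 and 23.8 FPKM with CW14, against 24.7, 20.9 and 17.6 FPKM in control libraries (adjusted p = 0.507, limma). These intervals exclude a log2 difference of 1 in size for each of the 6 genes named.

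**Figure D4:**
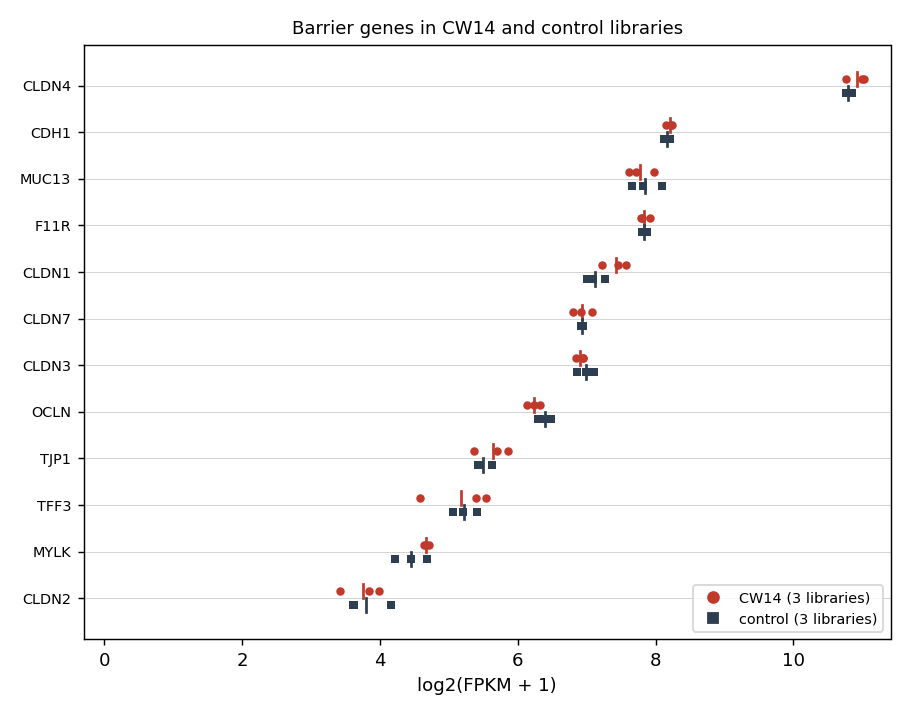
Values of log2(FPKM + 1) on the x axis for 12 genes of tight junctions, the adherens junction and the mucus layer, 1 gene per row. Red circles are the 3 CW14 libraries, dark squares the 3 control libraries, and short lines their means. The groups overlap for all 12 genes, and none was called.

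Beside the claudins, the plot of barrier genes shows CDH1 (E-cadherin), which had 301, 284 and 299 FPKM with CW14, against 290, 277 and 294 FPKM in control libraries (log2 difference 0.04, 95% interval -0.15 to 0.22). None of 21 adherens junction and desmosome genes was called. The mucin MUC13 and the trefoil factor TFF3, a repair peptide, were not called, and neither was any of 11 mucins and trefoil factors tested. Nor were any of 12 brush border hydrolases, 16 microvillus genes, 25 nutrient and ion transporters, 16 apolipoproteins and lipid absorption genes, 26 NRF2 targets, 70 ribosomal proteins or 29 mitotic genes called. Their medians ran from -0.19 for NRF2 targets to 0.06 for transporters. Of the 26 NRF2 targets, 22 had a negative log2 difference and 9 lay below every control. Of the 70 ribosomal proteins, 57 were negative and 11 lay below every control. Among all genes tested, 10.9% lay below every control. The keratin KRT8 had 2130, 2080 and 2180 FPKM with CW14, against 2330, 2490 and 2870 FPKM in control libraries, not overlapping but not called (adjusted p = 0.378, limma).

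The effect of CW14 can also be read in the presence of OTA, where OTA plus CW14 libraries are set against OTA libraries, none of which enter the comparison above. Of the 34 genes called higher with CW14 alone, 21 were also higher in the mean with OTA present, against 51.3% of genes tested, and 9 lay above every OTA library, against 17.6% of genes tested. Their median log2 difference was 1.74 without and 0.14 with OTA. Of the 33 called lower, 16 were lower in the mean, against 48.4% of genes tested, and 11 lay below every OTA library, against 16.8%. Their medians were -1 without and 0.02 with OTA. Without OTA plus CW14 replicate 3, which stood apart, the medians with OTA were 0.26 for the genes called higher and -0.13 for those called lower. The difference between both effects (interaction in the fit of all 12 libraries) was called for 16 of the 34 and 9 of the 33, against 3.33% of 12928 genes tested. The members enter that difference with the same contrast that chose them, so these counts are given as a description.

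**Figure D5:**
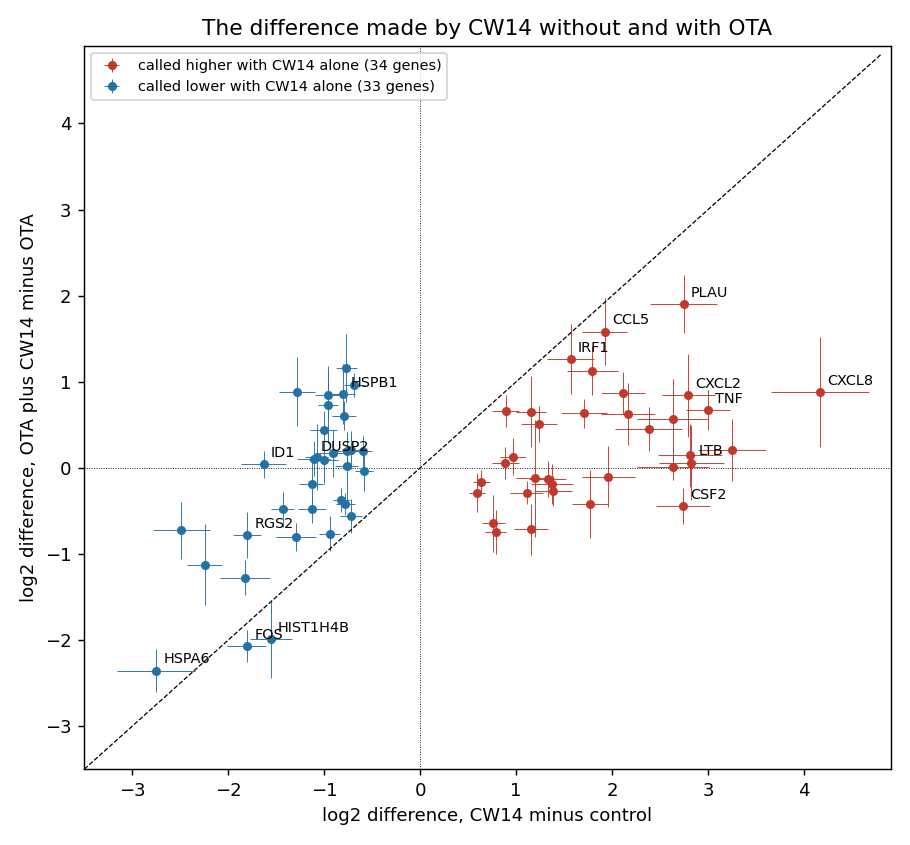
For the 67 called genes, the log2 difference of CW14 minus control (x axis) and of OTA plus CW14 minus OTA (y axis), with standard errors as bars. Red points were called higher and blue points lower with CW14 alone, and the dashed line marks equal differences. Most red points lie below the line, CXCL8 at 4.16 and 0.88, while HSPA6, FOS and HIST1H4B lie near it.

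In the plot of both effects, some genes kept a like difference and others did not. FOS had 12.6, 14.5 and 9.49 FPKM with OTA plus CW14, against 49.6, 59.1 and 52.4 FPKM with OTA, a log2 difference of -2.07 beside -1.8 for CW14 alone. HSPA6 had 4.22, 2.01 and 2.87 FPKM with OTA plus CW14, against 17.7, 22.6 and 17.5 FPKM with OTA, or -2.36 beside -2.75. PLAU had 7.77, 3.84 and 3.96 FPKM with OTA plus CW14, against 1.33, 0.406 and 0.231 FPKM with OTA, or 1.9 beside 2.74. CCL5 had 0.896, 2 and 4.85 FPKM with OTA plus CW14, against 0.239, 0 and 0 FPKM with OTA. For these 4 genes the interaction was not called (adjusted p of 0.353 to 0.705, limma), which does not show that the effects were equal. TNF had 1.24, 1.38 and 0.842 FPKM with OTA plus CW14, against 0.827, 0.202 and 0.115 FPKM with OTA, which do not overlap, with a difference of 0.67 beside 2.99 (interaction adjusted p = 0.0164, limma). Values this near 0 have their change understated by the log2(FPKM + 1) scale, and the part of this in the interaction was not tested. CXCL8 had 7.08, 2.9 and 0.55 FPKM with OTA plus CW14, against 2.59, 0.395 and 0.562 FPKM with OTA, values that overlap (interaction adjusted p = 0.0627, limma). CSF2 was listed at 0 in all OTA plus CW14 libraries and had 0.642, 0.523 and 0 FPKM with OTA (interaction adjusted p = 0.00738, limma). NFKBIA had 36.6, 27.2 and 44.2 FPKM with OTA plus CW14, against 28.2, 22 and 23.8 FPKM with OTA (difference 0.51 beside 1.24; interaction adjusted p = 0.16, limma). The third OTA plus CW14 library stood apart, with a residual SD of 0.588, against 0.305 to 0.424 in the other 11 libraries. Without it, 14 of the 34 lay above every OTA library (against 26% of genes tested) and 13 of the 33 below (against 25.3%), and the interaction was called for 21 and 20.

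By Pearson correlation of log2(FPKM + 1) over all 12 libraries, the genes whose pattern was most like that of CXCL8 were FLJ31104 (0.97), CXCL10 (0.97), TNF (0.97), CSF1 (0.96) and CSF3 (0.96). The genes most like TNF were CSF1 (0.98), CXCL8 (0.97), CSF3 (0.97), CXCL10 (0.96) and ICAM1 (0.94). The points share their libraries and depth, and they fall into 4 groups. All of these genes but FLJ31104 and ICAM1 were called higher with CW14, which favoured a high correlation in advance. These values are a description. FLJ31104 had 4.49, 3.62 and 5.69 FPKM with CW14, against 2.15, 1.71 and 1.95 FPKM in control libraries, and was not called (adjusted p = 0.0863, limma).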

How the data were processed

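RNA of 6 Caco-2 libraries was compared, 3 with CW14 and 3 controls; groups come from the sample titles. The deposited values are labelled FPKM per gene, a unit defined by transcript length and mapped fragments. The submitters' processing notes name hg19, Cuffdiff, Cuffnorm, Cufflinks 2.2.1, TopHat2 2.0.13 and cutadapt 1.10, without their roles; annotation and scaling are not given in sources used here. Reads were 150-base pairs from an mRNA kit, per the labels' protocols. FPKM carry no depth, so relative depth was taken from the most common ratio of values under 0.3 FPKM.

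Genes averaging 1 FPKM or more across the 6 libraries were tested as log2(FPKM + 1) in limma 3.58.1 (R 4.3.3), with a trended empirical Bayes step, 4 residual degrees of freedom, two-sided tests and Benjamini-Hochberg adjustment; calls needed an adjusted p under 0.05. The script was tested on simulated data. Of 26125 entries, 28 bore a date for a symbol and are not named. The labels do not say that replicates were separate cultures, so p-values measure the spread between these libraries. Members and lists were chosen with earlier results of these data known. Named genes are the 15 largest rises and 15 largest falls among called genes, up to 6 called members of each list or else its 2 highest, a fixed set of pathway genes, the 5 genes most like CXCL8 and TNF, and further list members chosen after their values were seen. Alternatives changed the libraries fitted, pseudocount, filter, scaling, variance model, replicate block and the size a call needs. Some genes are not reported here.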

Additional observations from a re-analysis of the deposited data

Results flagged for a closer look

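For 31 of the genes named here, the interaction term of limma over all 12 libraries reached an adjusted p under 0.05, as it did for 3.33% of all genes tested. The term is OTA plus CW14 minus OTA, less CW14 minus control, on the scale of log2(FPKM + 1). With OTA present, TNF, CXCL10, CSF2 and CSF3 were near 0, where this scale understates a change. The part of this in their values was not tested. Most of these genes were chosen by CW14 minus control, which enters the term, so a sign opposite to their CW14 effect was favoured in advance and their number is a description. Each of them also passed without the third OTA plus CW14 library, which stands apart.

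Negative values were found for genes that rose with CW14 alone, among them CSF2 (-3.18), CXCL10 (-3.04), LTB (-2.76), CXCL3 (-2.67), CSF3 (-2.63), TNF (-2.33) and BIRC3 (-1.93). The other called rises with a negative value were LOC284454 (-2.19), RCAN1 (-2.06), LINC00641 (-1.87), C6orf222 (-1.66), RND1 (-1.56), HCG4B (-1.53), CYP1A1 (-1.46), SDC4 (-1.40) and VMP1 (-0.80). Of genes not called with CW14 alone, the value was negative for SOD2 (-2.06), ICAM1 (-1.72), JUN (-1.37), the death receptor gene TNFRSF10B (-1.21), the mucin MUC13 (-1.09), TLR2 (-0.91) and the cadherin CDH17 (-0.77).

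Positive values were found for RASSF1-AS1 (2.17), SERTAD1 (1.80), ID1 (1.67), HSPB1 (1.66), DEDD2 (1.44) and DUSP2 (1.22), all of which were called lower with CW14 alone. They were also found for the Wnt antagonist DKK1 (2.65) and the keratin KRT18 (0.93), which were not called. DKK1 had 114, 102 and 162 FPKM with CW14, against 246, 270 and 465 FPKM in control libraries (adjusted p = 0.0747, limma).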

How the results depend on the processing

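Every call of CW14 against control kept its sign in each setting in which the gene was tested, and no named gene reversed in a setting where it was called. For fits that left out libraries the sign of a call was fixed in advance, since the groups of every called gene did not overlap. For single genes named or called, 2810 values kept their side of the threshold, 531 lost it and 33 gained it. List counts are not among these. The 67 calls (34 higher, 33 lower) became 130 (56 and 74) with 11 libraries, 5 (1 and 4) with no filter on low values, 12 (6 and 6) without the intensity trend, and 44 (27 and 17) where a log2 difference of at least 1 was also required. With all 12 libraries there were 47 calls, 19 of them lower. With both libraries numbered 1 left out there were 6 (2 and 4). Leaving out 1 library at a time gave 7 to 100 calls, with 3 to 66 higher and 4 to 34 lower. Upper-quartile scaling gave 64 calls and quantile normalization 68. The correlation of deviations between CW14 and control libraries of the same number was 0.157, 0.06 and -0.003 for numbers 1, 2 and 3. That of number 1 was the highest of all CW14 and control pairs. CW14 replicate 1 also correlated more with control replicate 1 (r 0.9466) than with CW14 replicates 2 and 3 (0.9427 and 0.9409). A fit with the replicate block gave 90 calls (42 and 48), and 62 of the 67 were among them. Interaction calls were 431 of all 12 libraries and 1582 of 11. The genes called with CW14 alone that lay on the same side of every OTA library were 20, and 27 without OTA plus CW14 replicate 3. Apart from the fewer libraries, the cause of these changes was not tested. Depth is known only relative to control replicate 1, and 3 libraries a group limit what could be detected.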

Other observations

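Metallothioneins, which bind zinc and copper, and the zinc exporter SLC30A1 followed the replicate number more than the bacteria. MT2A had 918, 98.3 and 74.5 FPKM in CW14 replicates 1, 2 and 3, and 802, 196 and 112 FPKM in control replicates 1, 2 and 3. MT1X had 235, 33.1 and 25.2 FPKM with CW14, and 275, 49.5 and 37.3 FPKM in control libraries. SLC30A1 had 230, 94.3 and 98.8 FPKM with CW14, and 203, 121 and 82.2 FPKM in control libraries. In each case the library numbered 1 was the highest of its group, and none of the 10 genes of that list tested was called.

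Several members of the lists that were under the filter, picked after their values were seen, were higher in CW14 than in control libraries. TNFSF14 (LIGHT) had 1.09, 1.16 and 1.69 FPKM with CW14, against 0.075, 0.0474 and 0.659 FPKM in control libraries. CCL22, a chemokine for CCR4-positive T cells, had 1.28, 0.83 and 0.921 FPKM with CW14, against 0.0714, 0.316 and 0 FPKM in control libraries. IL1A had 1.35, 0.459 and 1.25 FPKM with CW14, against 0.213, 0 and 0.39 FPKM in control libraries. Others went the other way, such as FGF21, listed at 0 in all CW14 libraries, against 0.585, 0.186 and 0.322 FPKM in control libraries. None of these genes was tested, and values this low rest on few fragments.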
